A study of Zea mays with 157 samples.

Results

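Rubisco small subunits and Rubisco activase were followed through 26 tissues of maize (Zea mays). The members were the 3 gene models Zm00001d052595 and Zm00001d004894, taken as small subunit genes, and Zm00001d048593, taken as activase, out of 71129 identifiers in the deposited list of paired genes. They were chosen by identifier and not by their values, though with earlier results of these data known. The plants were the F1 hybrid of B73 and Mo17 and the inbred parents B73 and Mo17, greenhouse-grown at 25 °C with 12 h of light and 12 h of dark and no special treatment. Each line gave 1 mRNA and 1 circRNA library per tissue, or 78 of each. The tissues comprised 11 leaf samples, 9 samples of shoot apical meristem, ear, tassel and inflorescence, and 6 others from stem, internode, root, embryo and endosperm. Every library came from a mixture of 3 extracts of 5 to 10 plants, so the spread between plants was not measured and tissues or leaf positions stood in for replicates.

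Rubisco fixes carbon dioxide onto ribulose bisphosphate in the Calvin cycle. The chloroplast genome encodes its catalytic large subunit, and a small family of nuclear genes encodes the small subunits that complete the enzyme. Rubisco activase is a nuclear-encoded chloroplast ATPase that removes inhibitory sugar phosphates from Rubisco and so keeps it active. Maize is a C4 plant, in which Rubisco is concentrated in the bundle sheath cells around the leaf veins.

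All 3 members were listed in the F1 and B73 mRNA tables, and only activase in the Mo17 table. The identifier list gave neither small subunit gene a Mo17 partner, which was also the case for 28399 of the 39513 genes of the B73 table, or 71.9%. The identifiers matched 0 of 3 in the RefSeq gene table for assembly NAM-5.0, so their names were not checked against it. That table names rbcS on chromosomes 2 and 4, and it lists rca1 and rca3 as neighbouring genes on chromosome 4. How alike the sequences of these genes are, and whether they share reads, was not tested. The files do not say how shared reads were counted.

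Levels below are the deposited mRNA values after scaling between the libraries of a line. The Mo17 columns sum to the total that defines TPM and were read as such, while no source used here names the unit of the F1 and B73 columns. Column sums ran from 1147000 to 1653000 in F1 and from 337600 to 694800 in B73. A single feature took 4.06 to 49.2% of F1 leaf columns, 14.7 to 51.4% of B73 leaf columns and 16.2 to 72.1% of Mo17 leaf columns. In meristem and inflorescence the largest feature took at most 1.74% of a column in any line. Levels of different lines come from tables normalized separately and are set side by side without a test.

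The Mo17 pair labelled as tip of stage 2 leaf, L and N, stood apart. Of 3013 genes that differed between L and N in F1 and B73 together and were also tested in Mo17, 257 had the same direction in that Mo17 pair, or 8.53%. The other Mo17 pairs gave 77.4% for the topmost leaf, 87.3% for the first leaf and 88.8% for the base of the stage 2 leaf. Whether the L and N labels of the tip pair were exchanged was not tested. An exchange would turn the sign of its L minus N value and change the Mo17 tip minus base values. All values are given as labelled. The L minus N and tip minus base results for activase are therefore given with and without the libraries labelled Mo17 tip.

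All 3 members were leaf transcripts in every line that listed them. Activase had 300 to 2198 in F1 leaves with a median of 946, against 0.112 to 0.803 in F1 meristem and inflorescence with a median of 0.194. In B73 it had 238 to 2534 in leaves with a median of 958, against 0.182 to 0.465 in meristem and inflorescence with a median of 0.259. In Mo17 it had 600 to 2290 in leaves with a median of 1036, against 0.0883 to 1.44 in meristem and inflorescence with a median of 0.291. The lowest leaf of each line lay above the highest meristem or inflorescence sample, so the groups did not overlap. The same held for 14.7% of the genes tested in F1, 16.8% in B73 and 14.1% in Mo17, so it is not rare among the genes tested.

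The small subunit genes showed the same separation. Zm00001d004894 ran from 149 to 2453 in F1 leaves with a median of 591, against 0.0514 to 1.60 in F1 meristem and inflorescence with a median of 0.548. In B73 it ran from 126 to 2164 in leaves with a median of 751, against 0.0973 to 1.90 in meristem and inflorescence with a median of 0.438. The second small subunit gene, Zm00001d052595, kept to the same range of tissues. It ran from 72.9 to 856 in F1 leaves with a median of 274, against 0.0823 to 1.98 in meristem and inflorescence with a median of 0.396. In B73 leaves it ran from 63.3 to 1017 with a median of 468, against 0.315 to 2.53 in meristem and inflorescence with a median of 1.01. No leaf value of either gene overlapped with a meristem or inflorescence value, as for the 14.7% of F1 genes and 16.8% of B73 genes above.

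Each member rose in leaf by limma's moderated test on log2(scaled value + 1) with Benjamini-Hochberg adjustment over all genes tested. Activase differed by 9.39 ± 0.32 in F1 (log2 difference ± SE, adjusted p = 4.97e-16), by 9.28 ± 0.30 in B73 (adjusted p = 2.81e-16) and by 9.46 ± 0.21 in Mo17 (adjusted p = 2.47e-18). Zm00001d004894 differed by 8.57 ± 0.41 in F1 (adjusted p = 1.26e-13) and by 8.80 ± 0.45 in B73 (adjusted p = 4.37e-13). For Zm00001d052595 the difference was 7.30 ± 0.40 in F1 (adjusted p = 1.39e-12) and 7.49 ± 0.43 in B73 (adjusted p = 2.33e-12). The pseudocount of 1 exceeds many of the meristem values, so these differences understate the change. Genes entered these fits, and the non-overlap shares above, at 1 or more in at least 3 libraries. All members but Zm00001d052595 in B73 could meet that only with leaf libraries. For them the filter leaned toward leaf, and the limma p is no independent evidence. Without the filter the differences were unchanged and all members were still called.

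A higher level in leaf was common, at 34.1% of 41136 genes in F1, 35.6% of 23836 in B73 and 32.7% of 24974 in Mo17, so a call alone says little about the members. Their differences were among the largest. Ordered by log2 difference, activase stood at position 11 in F1, 9 in B73 and 6 in Mo17. Zm00001d004894 stood at position 27 in F1 and 15 in B73, and Zm00001d052595 at position 87 in F1 and 46 in B73. With a pseudocount of 0.1 in place of 1, Zm00001d052595 stood at position 108 in F1 and 75 in B73. Without the husk leaf it stood at 119 in F1 and 48 in B73. In bulk tissue, fewer cells of a type and less RNA per cell cannot be told apart. With scaling, 14015 genes were called higher and 16453 lower in F1 leaf, and without it 6079 higher and 28593 lower. The counts were 8494 higher and 9268 lower in B73 with scaling and 4624 and 14862 without it, and in Mo17 8173 and 10083 with scaling and 3279 and 17860 without it. The members were called higher under both.

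**Figure D1:**
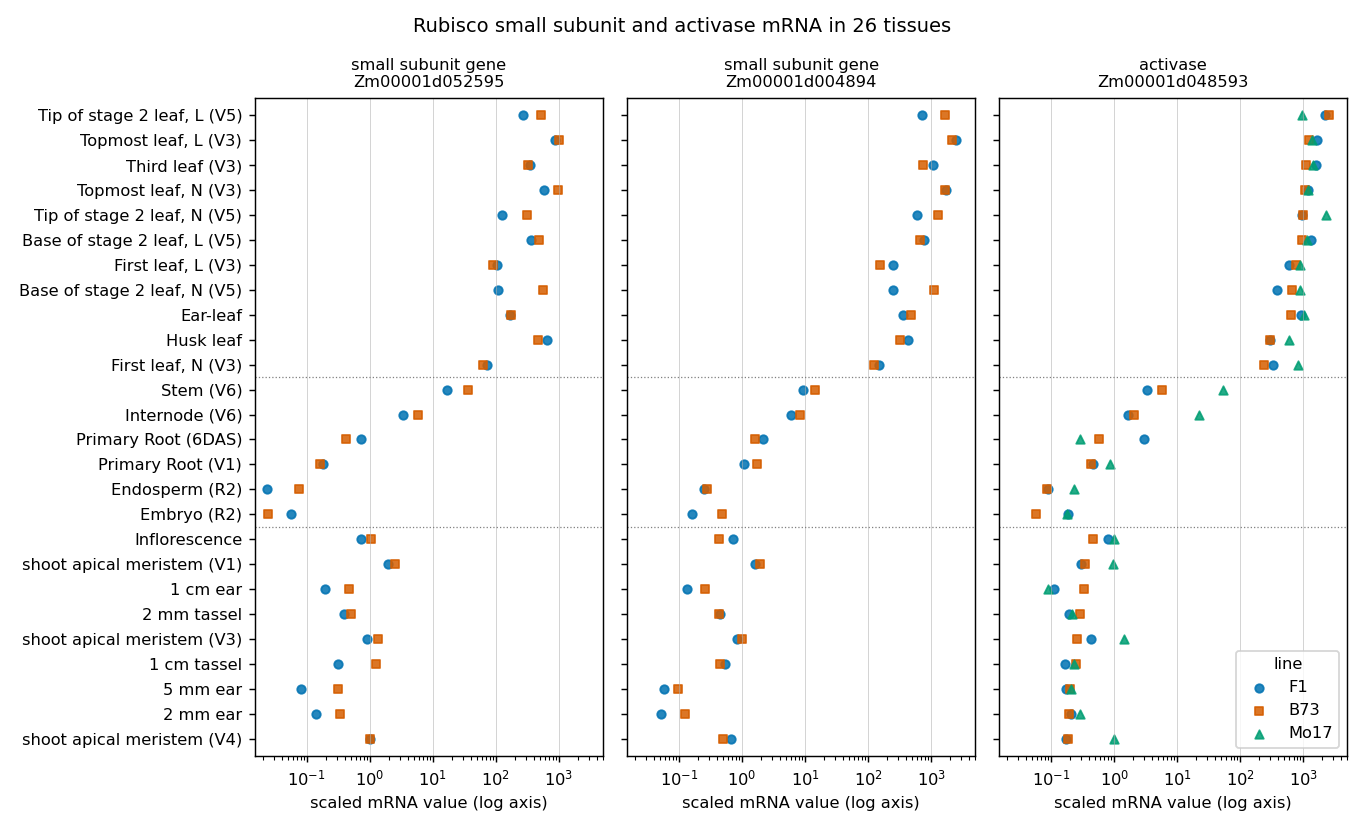
Scaled mRNA values (log axis) of the 3 members in 26 tissues, 1 point per library, with leaf tissues above the upper dotted line, stem, root and kernel between the lines, and meristem and inflorescence below. Every leaf library lies above every other library of its line, and stem comes next in each, with Mo17 activase at 52.7 in stem.

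Stem and internode came next after the leaves, except that F1 activase was higher in the 6-day primary root than in the internode. Zm00001d052595 had 16.8 in F1 stem and 36.4 in B73 stem, and 3.40 in F1 internode and 5.86 in B73 internode. Zm00001d004894 had 9.39 in F1 stem and 14.5 in B73 stem, and 6.01 in F1 internode and 8.43 in B73 internode. The lowest B73 leaf value of Zm00001d052595, 63.3 in the first leaf N, was only 1.74 times its B73 stem value, the narrowest gap between leaf and non-leaf of any member and line.

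Activase in stem had 3.29 in F1, 5.63 in B73 and 52.7 in Mo17, and in internode 1.68 in F1, 2.09 in B73 and 21.9 in Mo17. Set against the mean over the 11 leaves of the same line, stem held 0.318% in F1, 0.593% in B73 and 4.59% in Mo17. Internode held 0.162% in F1, 0.220% in B73 and 1.91% in Mo17. Each is a single library, so these shares have no error and the lines were not tested against each other.

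Root, embryo and endosperm had low values of all 3 members. The highest of these was 2.92 for activase in the 6-day primary root of F1, against 0.569 in B73 and 0.290 in Mo17. Zm00001d004894 had 2.16 in that root in F1 and 1.63 in B73. Zm00001d052595 reached its lowest values in the kernel, 0.0238 in F1 endosperm and 0.0244 in B73 embryo. Among meristems, both small subunit genes were highest in the V1 shoot apical meristem, where Zm00001d052595 had 1.98 in F1 and 2.53 in B73 and Zm00001d004894 had 1.60 in F1 and 1.90 in B73.

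Within leaf, the members did not share their top sample. The small subunit genes peaked in the topmost leaf L at V3, where Zm00001d004894 had 2453 in F1 and 2164 in B73. Both were lowest in the first leaf N, where Zm00001d004894 had 149 in F1 and 126 in B73. The ratio of highest to lowest leaf for Zm00001d004894 was 16.5 in F1 and 17.2 in B73, and for Zm00001d052595 11.7 in F1 and 16.1 in B73. Neighbours in this order were often close, as with Zm00001d004894 in B73 at 1647 in tip L and 1640 in topmost leaf N, and 1 library per tissue gives no error to separate them.

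Activase peaked instead in the tip of the stage 2 leaf at V5, in the library labelled L in F1 (2198) and B73 (2534) and in the library labelled N in Mo17 (2290). Its next highest samples were the topmost leaf L in F1 (1657) and B73 (1220) and the third leaf in Mo17 (1414). Its lowest leaf was the husk leaf in F1 (300) and Mo17 (600) and the first leaf N in B73 (238), followed in B73 by the husk leaf at 291. The highest leaf was 7.33 times the lowest in F1, 10.7 times in B73 and 3.81 times in Mo17. Among the Mo17 TPM values, activase stood between positions 42 and 102 of 34925 features in every leaf library.

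Over the 11 leaf samples, the small subunit genes followed each other with a Pearson correlation of log2 values of 0.840 in F1 and 0.877 in B73. Zm00001d004894 followed activase at 0.765 in F1 and 0.754 in B73, and Zm00001d052595 did so at 0.446 in F1 and 0.526 in B73. Each member's leaf order was also compared between lines. The correlation of F1 with B73 was 0.898 for activase, 0.776 for Zm00001d004894 and 0.775 for Zm00001d052595, and that of B73 with Mo17 for activase was 0.523. Over the 9 leaves without the tip libraries, the correlation of B73 with Mo17 for activase was 0.858. That of F1 with Mo17 was 0.937 without the tip libraries, against 0.593 with them. These are descriptions over 11 tissues whose values share a library and a scaling factor.

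The balance of the small subunit genes set the husk leaf, the leafy wrapping of the ear, apart from the other leaves. Zm00001d052595 made up 60.2% of the sum of both genes in the husk leaf of F1 and 59.1% in that of B73. In the other 10 leaves of each line it made up less than 50%, with the lowest share in the tip of the stage 2 leaf N, at 17.6% in F1 and 19.9% in B73. The median leaf share was 29.8% in F1 and 33.5% in B73. The stem resembled the husk leaf in this, with 64.2% in F1 and 71.6% in B73, while the internode lay below 50% in both lines. Meristem and inflorescence also lay mostly above 50%, in 7 of 9 F1 libraries (54.6 ± 10.0%, SD) and 9 of 9 B73 libraries (65.9 ± 8.17%), at levels of both genes of 2.53 or less. No source used here says whether the F1 and B73 values are per length, so the share compares tissues and not the abundance of the genes.

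The husk leaf was 1 sample where the levels of the genes parted, though not the only one. Its Zm00001d052595 level was 198% of the leaf mean in F1 and 103% in B73. Its Zm00001d004894 level was 54.3% of the leaf mean in F1 and 34.4% in B73, and its activase level was 28.9% in F1, 30.7% in B73 and 52.3% in Mo17. Activase over the small subunit sum was accordingly lowest there, at 0.276 in F1 and 0.368 in B73. The highest values of that ratio were 2.23 in the tip L of F1 and 3.10 in the first leaf L of B73. In B73 the log2 ratio was 1.63 in the first leaf L and -1.44 in the husk leaf, against a leaf mean of -0.38. The B73 base N, at 0.395, lay close to the B73 husk leaf, and each value is from 1 library. Topmost leaves, with the highest small subunit levels, had ratios of 0.501 in L and 0.515 in N for F1 and of 0.384 in L and 0.407 in N for B73.

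**Figure D2:**
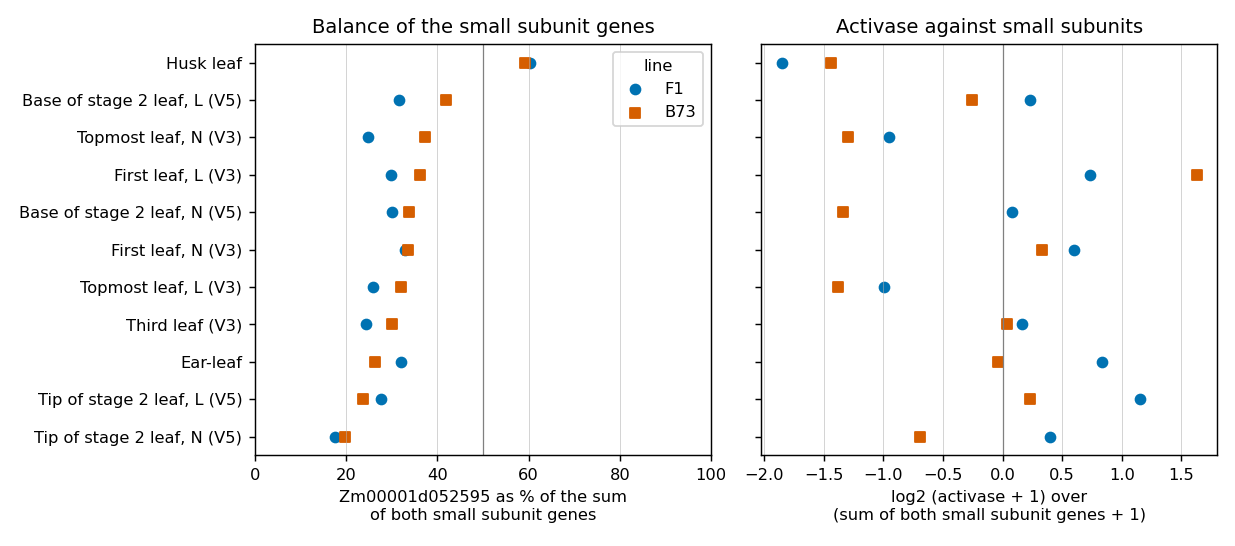
Left, Zm00001d052595 as a percentage of the sum of both small subunit genes, and right, log2 of activase over that sum (pseudocount 1), in the 11 leaf tissues of F1 (circles) and B73 (squares), 1 point per library. The husk leaf alone lies above 50% on the left, at 60.2% in F1 and 59.1% in B73, and has the lowest activase ratio on the right.

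Whether the hybrid and B73 differed in these ratios was asked within tissues. The log2 ratio of Zm00001d052595 to Zm00001d004894 averaged -1.22 ± 0.69 in F1 and -0.99 ± 0.67 in B73 (SD, n = 11 leaf tissues each). The difference was -0.23 ± 0.38, with F1 higher in 3 of 11 tissues, and the two-sided exact sign-flip permutation test gave p = 0.0820. The log2 ratio of activase to the small subunit sum averaged 0.035 ± 0.92 in F1 and -0.38 ± 0.96 in B73 (SD, n = 11 each). Here the difference was 0.42 ± 0.67, with F1 higher in 9 of 11 tissues, and the same exact test gave p = 0.0674. Adjusted over both comparisons, p was 0.0820 for each, so neither passed 0.05. F1 activase fell on other decimal steps than the F1 small subunit genes, with 12 of 24 values on the steps that all of theirs shared. Whether the F1 value of activase, which is listed for both parental genomes, was summed or averaged over them is stated in no label or file header. The small subunit genes are listed for the B73 genome only, so the F1 activase ratio may be on another scale than that of B73, and the part of this in the difference was not tested. The test can reach 0.000977 with 11 tissues, and ratios involving Mo17 were not analysed here because its table listed no small subunit gene. The 11 tissues include L and N libraries of the same leaf positions, which the test took as independent. Its p may therefore be too small, and the ratios were not tested with L and N averaged.

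At 4 leaf positions there were separate libraries with the suffixes L and N, whose meaning the labels do not give. In F1, activase was higher in L at all 4 positions. It had 586 in L and 336 in N of the first leaf, 1657 and 1183 in L and N of the topmost leaf, 2198 and 946 in L and N of the tip, and 1334 and 375 in L and N of the base. In B73 it was again higher in L at all 4, with 758 in L and 238 in N of the first leaf and 1220 and 1063 in L and N of the topmost leaf. The B73 tip had 2534 in L and 978 in N, and the B73 base 958 in L and 662 in N. As log2 differences, the gaps were widest in the base of F1 (1.83) and in the first leaf (1.67) and tip (1.37) of B73.

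In Mo17, activase was slightly higher in L at 3 positions and much lower at the tip. It had 900 in L and 837 in N of the first leaf, 1351 and 1201 in L and N of the topmost leaf, and 1157 and 882 in L and N of the base. In the libraries labelled Mo17 tip it had 958 in L and 2290 in N. In that pair, 8.53% of the 3013 genes that differed in F1 and B73 had the same direction as there.

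Over all 12 pairs, the difference of activase was 0.63 ± 0.23 (log2 ± SE), higher in L in 11 of 12, and did not pass (limma adjusted p = 0.0539), in a fit that called 13.1% of 6652 genes higher in L. Without the Mo17 tip pair it was 0.80 (adjusted p = 0.00250). Over the 8 pairs of F1 and B73 alone, activase rose in L by 1.01 ± 0.20 (adjusted p = 0.00219, higher in 8 of 8 pairs, 18.9% of 19059 genes called higher). The call over 8 pairs was lost without the pairing by position (adjusted p = 0.0952) and without F1 (0.94, adjusted p = 0.0751), while over 12 pairs a call appeared without the tip pairs of all 3 lines (0.69, adjusted p = 0.0187). The values as deposited gave 2229 genes higher and 6577 lower in L over the 8 pairs, against 3607 and 4920 with scaling, and over the 12 pairs 521 and 1878 against 873 and 1360.

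Each small subunit gene was higher in L in 7 of 8 pairs, and the differences were not tested against that of activase. Zm00001d052595 in F1 had 105 in L and 72.9 in N of the first leaf, 856 and 571 in L and N of the topmost leaf, 274 and 126 in L and N of the tip, and 358 and 107 in L and N of the base. In B73 it had 88.7 in L and 63.3 in N of the first leaf, 1017 and 973 in L and N of the topmost leaf, 513 and 313 in L and N of the tip, and 479 and 566 in L and N of the base. It was thus higher in L in 7 of 8 pairs, the B73 base being the exception, and rose by 0.62 ± 0.19 (limma adjusted p = 0.0233). That call was lost without F1 (0.25, adjusted p = 0.423), without the first leaf (0.66, adjusted p = 0.0672), without the tip (0.52, adjusted p = 0.126), without the pairing (0.62, adjusted p = 0.565) and with the values as deposited (0.44, adjusted p = 0.123).

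Zm00001d004894 in F1 had 247 in L and 149 in N of the first leaf, 2453 and 1725 in L and N of the topmost leaf, 712 and 591 in L and N of the tip, and 777 and 249 in L and N of the base. In B73 it had 156 in L and 126 in N of the first leaf, 2164 and 1640 in L and N of the topmost leaf, 1647 and 1264 in L and N of the tip, and 665 and 1109 in L and N of the base. The B73 base was again the only pair lower in L, and it was the largest decrease among the small subunit pairs, with a log2 difference of -0.74. The difference over the 8 pairs was 0.44 ± 0.21 and did not pass (limma adjusted p = 0.115). Without the base position it was 0.43 and passed (adjusted p = 0.0181), and without F1 it was 0.0885 (adjusted p = 0.832).

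**Figure D3:**
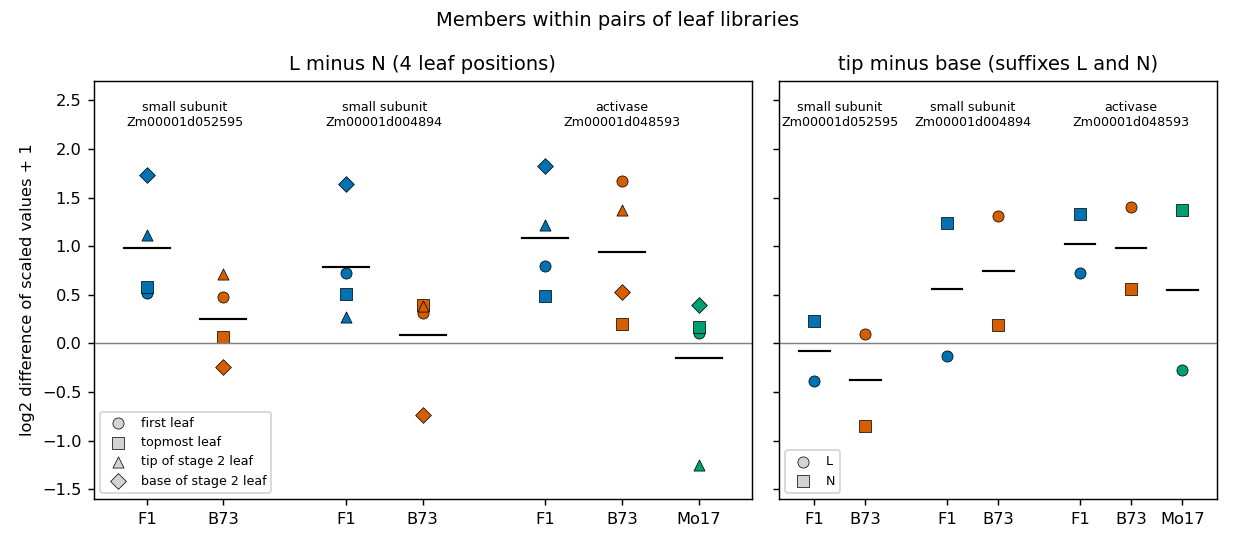
Log2 differences of scaled values + 1 within pairs of libraries of the same line, L minus N at 4 leaf positions on the left and tip minus base of the stage 2 leaf within L and within N on the right, with a bar at the mean of each line. Activase lies above 0 in all 8 F1 and B73 pairs on the left and all 4 on the right, and the Mo17 tip pair lies at -1.26.

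The tip and the base of the stage 2 leaf at V5 sample the maturity gradient of a grass leaf, whose base is its youngest part. Activase in F1 had 2198 in the tip and 1334 in the base of L, and 946 in the tip and 375 in the base of N. In B73 it had 2534 in the tip and 958 in the base of L, and 978 in the tip and 662 in the base of N. In Mo17 it had 958 in the tip and 1157 in the base of L, and 2290 in the tip and 882 in the base of N. All 4 pairs of F1 and B73 were higher in the tip, and in Mo17 the libraries labelled N were.

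Over the 6 pairs of the 3 lines, the difference of activase was 0.85 ± 0.28 (log2 ± SE) and did not pass (limma adjusted p = 0.106), in a fit that called 5.02% of 6071 genes higher in the tip. Over the 4 pairs of F1 and B73 alone, activase rose in the tip by 1.00 ± 0.22 (adjusted p = 0.0205, 13.8% of 17137 genes called higher). Leaving out the Mo17 tip libraries leaves these same 4 pairs, with adjusted p = 0.0374 over the 6247 genes also listed for Mo17. The call over 4 pairs was lost without F1 (0.98, adjusted p = 0.276), without B73 (1.03, adjusted p = 0.114), without the pairing (adjusted p = 0.348), without the filter (adjusted p = 0.0835) and with the values as deposited (0.57, adjusted p = 0.0774). The values as deposited gave 881 genes higher and 5227 lower in the tip, against 2360 and 1114 with scaling, and over the 6 pairs 119 and 1689 against 305 and 255.

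The small subunit genes did not pass in this comparison. Zm00001d004894 in F1 had 712 in the tip and 777 in the base of L and 591 in the tip and 249 in the base of N, and in B73 1647 in the tip and 665 in the base of L and 1264 in the tip and 1109 in the base of N. Its difference was 0.65 ± 0.29 (limma adjusted p = 0.152), higher in the tip in 3 of 4 pairs. Zm00001d052595 in F1 had 274 in the tip and 358 in the base of L and 126 in the tip and 107 in the base of N, and in B73 513 in the tip and 479 in the base of L and 313 in the tip and 566 in the base of N. It was higher in the tip in 2 of 4 pairs, with a difference of -0.23 ± 0.21 (adjusted p = 0.489). With the values as deposited it was -0.66 and passed (adjusted p = 0.0413).

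For each member, the 3 genes most like it over the 26 B73 tissues were taken by Pearson correlation of log2(scaled value + 1) among 24710 genes. For activase these were Zm00001d017711 (0.996), Zm00001d011833 (0.995) and Zm00001d028562 (0.995). For Zm00001d004894 they were Zm00001d028562 (0.994), Zm00001d035212 (0.992) and Zm00001d023990 (0.990), so that Zm00001d028562 appeared for both. For Zm00001d052595 they were Zm00001d007921 (0.988), Zm00001d008706 (0.987) and the other small subunit gene, Zm00001d004894 (0.987). The same pairs of genes correlated at 0.979 to 0.995 in F1. Of these only the pair of activase and Zm00001d028562 could be followed in Mo17, where it correlated at 0.988. The files give these genes no names. Likeness over all tissues and within leaves differed, since activase with Zm00001d052595 reached 0.970 over all 26 B73 tissues and 0.526 over the 11 leaves.

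Back-splicing, which ties the end of an exon to the start of an earlier one, yields a closed circRNA, and it is counted by reads across that joint. The small subunit genes have no listed Mo17 partner, so the Mo17 catalogue could not be searched for them. In the B73 catalogue only activase of the 3 members had circRNAs, and 51.6% of the 24710 B73 genes that passed the mRNA filter had at least 1. The catalogue gave activase 2, called with circexplorer2 per the file. Zmcirc008388 lies at chr4:921855-922361 on the plus strand of B73 RefGen_v4, a span of 507 bp, and has a Mo17 counterpart of the same span at chr4:853112-853618, in a Mo17 build that the sources used here do not name. Zmcirc038240 shares its start and runs to 923269, a span of 1415 bp, and has no Mo17 counterpart in the catalogue. Of the 13140 B73 host genes, 40.6% had 1 or 2 catalogued circRNAs. Exon and intron positions of the host were not analysed here.

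Both circRNAs were seen in leaf libraries only, and at values near the smallest above 0 of their libraries. In F1, Zmcirc008388 had 0.244 RPM in the first leaf L, 0.198 in the base N, 0.170 in the ear leaf, 0.0899 in the third leaf and 0.0790 in the base L. In B73 it had 0.263 RPM in the first leaf L, 0.147 in the third leaf and 0.122 in the tip N. Zmcirc038240 had 0.0857 RPM in the B73 ear leaf and was at 0 elsewhere in B73. The smallest value above 0 in a leaf library was 0.0624 to 0.0984 RPM in F1 and 0.0629 to 0.0952 RPM in B73, so the highest value was 3.33 times the smallest of its library. The F1 table did not list Zmcirc038240 and the Mo17 table listed neither.

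Averaged over leaves, Zmcirc008388 had 0.0710 ± 0.0929 RPM in F1, with 5 of 11 libraries above 0, against 0 in all 9 F1 meristem and inflorescence libraries. In B73 it had 0.0483 ± 0.0893 RPM, with 3 of 11 leaf libraries above 0, against 0 in all 9. It was thus not detected at this depth in most leaf libraries of both lines, and it was detected in the first leaf L and the third leaf of both. In the limma fit over 7217 F1 hosts, 6.32% of which were called higher in leaf, the activase circRNA sum had an adjusted p of 0.0251. It entered that fit through exactly 5 leaf libraries, so the filter itself required a difference, and the p is no independent evidence. The fitted log2 difference depends on the pseudocount against a group of zeros, at 0.90 in the main fit and 0.177 with a pseudocount 10 times larger. With hosts above 0 in 2 libraries the adjusted p was 0.0513 in F1 and 0.0994 in B73, where the sum was above 0 in 4 leaf libraries and too rare for the main filter. This filter too was passed through leaf libraries only, so these limma p are no independent evidence either. The mRNA of activase peaked in the tip L, where both circRNAs were at 0 in both lines or not listed.

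**Figure D4:**
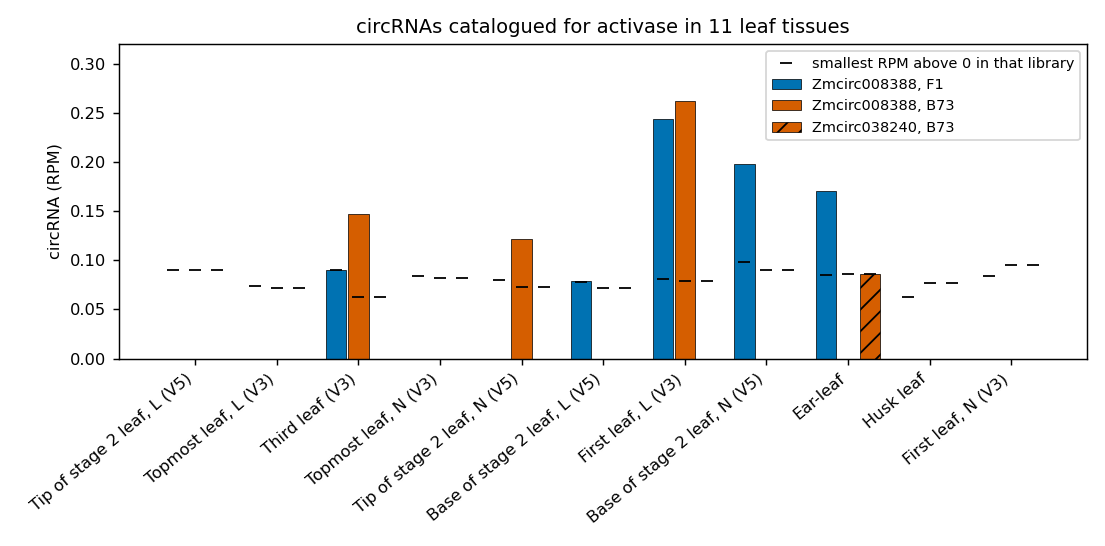
RPM of the activase circRNAs in the 11 leaf libraries of F1 and B73, ordered by B73 activase mRNA from highest to lowest, with a dash at the smallest value above 0 of each library. The first leaf L has the highest bars, 0.244 RPM in F1 and 0.263 RPM in B73, and the tip L has none.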

How the data were processed

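The members and comparisons were chosen with earlier results of these data known. The build B73 RefGen_v4 and the tools SAMtools, TopHat, StringTie and HISAT, with no version, are named in the submitters' processing notes. The deposited Mo17 mRNA values were read as TPM from their column sums. The deposited F1 and B73 mRNA values are in no named unit and were treated as a signal. The deposited circRNA values are RPM, scaled by the authors to library reads. Depth in reads is not given, so precision rests on the spread between tissues.

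Libraries of a line were scaled by median ratios, using the genes that had 1 or more in all 26 of them. Genes reaching 1 in 3 or more libraries of a fit were kept. Their log2(scaled value + 1) was tested with limma 3.58.1 (R 4.3.3), fitting a trend of variance on mean, and p was adjusted after Benjamini and Hochberg, with a threshold of 0.05. L minus N and tip minus base used the pair of the same line and position, or of the same line and suffix, as a block. This pairing comes from the labels. Deviations within pairs correlated at 0.524 to 0.877 in F1 and B73. In Mo17 they correlated at -0.615 to 0.755, and the pairs holding a tip library were negative. For tip minus base, the L and N pairs of a line have the same correlation by construction. Since the small subunit genes had no Mo17 partner, the fit over F1 and B73 alone, planned as the alternative without Mo17, is given for all members beside the fit over 3 lines. This was chosen after the tables were seen. Sums of circRNA RPM per host were tested with the smallest value above 0 as pseudocount, over hosts above 0 in at least 5 libraries. Ratios were compared with exact sign-flip tests in SciPy 1.17.1. The limma scripts were tested on simulated data. Named genes were the members, their circRNAs and the 3 genes most like each member. The list of Calvin cycle and C4 genes was not used, because no table paired its names with identifiers. No sequences of the members were used. A total RNA library and the 1 cm tassel count tables were left out because no column could be tied to them. Alternatives changed the pseudocount, filter, scaling, block and libraries.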

Additional observations from a re-analysis of the deposited data

How the results depend on the processing

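The leaf minus meristem and inflorescence differences kept direction and call for all members in F1, B73 and Mo17 under the 6 alternatives run, between 6.24 and 11.3 on the log2 scale. The values as deposited moved the median of all genes to -1.22 in F1, -0.90 in B73 and -1.41 in Mo17. The leaf pairs were the less stable part, and the causes were not tested. Genes called for L minus N over 12 pairs numbered 2233, against 1186 without the replicate block, 3363 without the Mo17 tip libraries and 0 to 8527 leaving out a line or a position, where the highest, without Mo17, also tests 19059 genes in place of 6652. Limma called 0 genes without B73, F1, the topmost leaf, the first leaf or the base, with 1500 to 2466 genes at an unadjusted p under 0.05. Over 8 pairs of F1 and B73 they numbered 8527, against 3933 without the block and 3880 to 7540 leaving out a line or position. For tip minus base the 6 pairs gave 560 genes, against 1808 as deposited, 1216 without the Mo17 tip libraries and 2 to 3474 leaving out a line, where the highest, without Mo17, also tests 17137 genes in place of 6071. The 4 pairs of F1 and B73 gave 3474, against 6108 as deposited, 712 without the block and 874 to 888 with 1 line.

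For L minus N over 12 pairs, activase was 0.80 without the Mo17 tip libraries and 0.40 to 1.01 leaving out a line or position. Over 8 pairs it was 1.01 without the block (adjusted p = 0.0952) and 0.92 to 1.24 leaving out a line or position. Zm00001d052595 was 0.62 without the block, 0.44 as deposited and 0.25 to 0.99 leaving out a line or position, and Zm00001d004894 0.0885 to 0.79. For tip minus base, activase was 1.00 without the Mo17 tip libraries, which leaves the 4 pairs of F1 and B73, and 0.77 to 1.00 leaving out a line over 6 pairs. Over 4 pairs it was 1.00 without the filter and without the block, 0.57 as deposited and 0.98 to 1.03 with 1 line. Zm00001d052595 was -0.66 as deposited. The F1 activase circRNA sum was 0.90 with hosts above 0 in 2 libraries (adjusted p = 0.0513) and 0.177 with a pseudocount 10 times larger, and its filter already required a difference. Neither F1 minus B73 ratio passed under any of 4 alternatives, among them no replicate block (p = 0.448 after adjustment for both). All alternatives of the fits over F1 and B73 alone were chosen after seeing the data. The ratio comparisons with Mo17, 4 of 6, were not run, since its table lists no small subunit gene. Pooling of extracts and 1 library per tissue limit all errors to the spread between tissues.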

Other observations

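The decimal steps of the deposited mRNA values differed between the members in F1. Multiplied by 3, all 26 values under 900 of Zm00001d052595 and all 24 of Zm00001d004894 were whole in units of the last decimal place, taking as whole a value within 0.01 of such a unit before multiplying. For activase this held for 12 of 24 values, and for all 24 when multiplied by 6. Over the F1 table, 52.4% of the values of features listed for both genomes were whole when multiplied by 3 and 99.6% when multiplied by 6, against 98.6% by 3 for features of the B73 genome only. In B73 and Mo17, all values of activase under 900 were whole when multiplied by 3. No label states how these steps arose, or whether F1 values of features listed for both genomes were summed or averaged over them.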
